A study of Gallus gallus with 3 samples.

Results

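The genes described are the enzymes and subunits that write, erase and read chemical marks on chromatin or move nucleosomes. They were taken from the array's annotation by name: gene symbols starting with DNMT, TET, KDM, KMT, HDAC, SIRT, SMARC, CHD, CBX, KAT or ARID, with a number after TET, CHD and KAT, together with EZH1, EZH2, EED and SUZ12. This gave 82 genes of 13008 named on the array, read by 215 probe sets. A further probe set shared by SMARCC1 and another gene was left out.

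RNA was measured in endoderm, the inner germ layer that forms the lining of the gut, from chick embryos (Gallus gallus). The early sample was the endoderm layer of 500 embryos, at stages 4 to 5 of the Hamburger-Hamilton series, peeled off the mesenchyme with a needle. The foregut sample was endoderm in front of the anterior intestinal portal at stages 10 to 11, and the mid/hindgut sample was endoderm behind the prospective small intestine at stages 8 to 10. Both later tissues were cut out with their mesenchyme, which was removed after 30 minutes in 0.03% collagenase. Each sample was 1 pool gathered every 4 hours over 1 day, and 5 µg of its total RNA went onto 1 Affymetrix Chicken Genome Array. With 1 array per tissue no difference has a replicate check, and no test or p-value is given. No genotype, breed or drug treatment is named in the labels, and stage, region and the enzyme step cannot be told apart. The comparisons of the later tissues with early endoderm share the same early array.

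Chromatin is DNA wrapped on histones. Methyl groups on DNA and methyl or acetyl groups on histone tails mark genes for silence or activity, and remodelling complexes use ATP to slide or evict nucleosomes. Polycomb complexes, which hold developmental regulators such as the HOX genes silent until they are needed, and SWI/SNF complexes, which open enhancers, are known for their part in the choice of cell fate in the embryo. The roles given below are those known from mammals, mainly human and mouse.

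All signals are scaled signals, the deposited intensities brought to a common trimmed mean, and differences are in log2 units. A signal at or below 22.1 was set to that value, here called the floor, and a gene was counted as measured in a comparison when it lay above the floor on either array. The deposited signals had medians of 30.6 to 36.6 on the 3 arrays. The signal of the 3′ end of actin over its 5′ end, a sign of RNA integrity, was 1.55 in early endoderm, 1.69 in the foregut and 2.19 in the mid/hindgut. The same ratio for GAPDH was nearly level, at 0.98, 0.97 and 1.01. The only repeat reading is another probe set of a gene. Over 4134 genes the disagreement of such pairs amounted to a technical standard deviation, on the log2 scale, of 0.43 for foregut against early, 0.31 for the mid/hindgut against early and 0.36 for the foregut to mid/hindgut contrast, and it covers probe noise but not variation between pools. Among the 48 chromatin genes with 2 such probe sets the same spread was 0.39, 0.20 and 0.32, and the probe sets had the same sign in 31, 38 and 33. Values are those of a gene's brightest probe set unless another is named. Of the endoderm markers EPCAM was at 5357, 9297 and 8896 in early, foregut and mid/hindgut endoderm, and FOXA2 at 1488, 1023 and 868, while GATA4 was below the floor on every array. SOX17 was at 9773, 878 and 4947, GATA6 at 1126, 138 and 415, and CDH1 at 227, 607 and 554. FOXA1 was above the floor in foregut alone, at 24.4. The 7 endoderm markers on the array summed to 18014, 11990 and 15724. In foregut 1 of 6 measured was at least 2-fold higher than in early endoderm and 2 were lower. In mid/hindgut 1 of 5 was higher and 1 lower.

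Most chromatin genes had similar signals in the 3 tissues, as did most of all measured genes. Against early endoderm 69 of 80 were within 2-fold in foregut and 73 of 78 in mid/hindgut. Of all genes 10.6% were at least 2-fold higher and 6.49% lower in foregut, and 8.12% and 5.13% in mid/hindgut. The SWI/SNF ATPase SMARCA2, the acetyltransferase KAT2B, the DNA-binding factor ARID5B and the demethylase KDM4C were at least 2-fold higher in both later tissues than in early endoderm. The share of all genes higher in both was not counted. KDM4C was close to the floor in early endoderm, at 25.5. Raising the floor to the 60th percentile brought its log2 differences to 0.05 in foregut and 0.15 in mid/hindgut. That change brought ARID5B in foregut to 0.87, within 2-fold, whereas SMARCA2 and KAT2B stayed past 2-fold in both tissues. The mitochondrial deacylase SIRT5 was 3.51-fold higher in foregut and level in mid/hindgut. The Polycomb enzyme EZH2, its partner EED, the DNA demethylase TET1 and the DNA methyltransferase DNMT3B were lower in both later tissues. Each was lower by less than 2-fold as scaled here. In foregut DNMT3B was at −0.38, below the technical standard deviation of 0.43. By any amount 44.4% of all genes were lower in foregut and 46.6% in mid/hindgut. KMT5B, CHD1, KDM2B and KDM3B were lower in both tissues as well, each more than EZH2 in foregut and less than EZH2 in mid/hindgut. Without scaling EZH2 and EED in foregut and DNMT3B in mid/hindgut were past 2-fold lower. When arrays were scaled on hybridisation controls DNMT3B in foregut was level with early endoderm, at 0.09. In pooled tissue fewer cells that carry a transcript and less of it per cell cannot be told apart.

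Of the 82 genes, 78 lay above the floor in early endoderm, 80 in the foregut and 76 in the mid/hindgut. CBX7 and KMT2D, a histone methyltransferase of enhancers, were above it on no array. CHD5 and KDM2A were above it in foregut alone, at 27.1 and 22.3, and KDM1B and SMARCB1 in early endoderm and foregut. The other 76 were above it on every array.

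In foregut against early endoderm 80 genes were measured. Of these 8 were at least 2-fold higher, or 10%, where 10.6% of all 10800 measured genes were, and 3 were at least 2-fold lower, or 3.75%, where 6.49% of all genes were. In mid/hindgut against early endoderm 78 were measured and 5 were higher, or 6.41% against 8.12% of all genes, and none was lower, against 5.13%. In foregut against mid/hindgut 80 were measured and 5 were higher, or 6.25% against 6.37% of all genes, and 1 was lower, or 1.25% against 5.74%. These shares were near the background or below it. By any amount, 46 of the 80 were higher and 34 lower in foregut against early endoderm, or 57.5% and 42.5%, where 55.6% and 44.4% of all genes were. In mid/hindgut 31 were higher and 47 lower, or 39.7% and 60.3% against 53.4% and 46.6%, and between the later tissues 46 were higher in foregut and 34 lower, or 57.5% and 42.5% against 52.1% and 47.9%. These directions are those of each gene's brightest probe set. Over all 180 measured probe sets of the chromatin genes 103, or 57.2%, were lower in foregut than in early endoderm, against 51.0% of all probe sets. In mid/hindgut 116 of 180, or 64.4%, were lower, against 49.5%. Between the later tissues 98 of 179, or 54.7%, were lower in foregut, against 53.4%. In both comparisons of foregut most brightest probe sets were higher, so the prevailing direction depends on which probe sets are read. The median log2 differences were 0.05, −0.05 and 0.06, beside 0.08, 0.03 and 0.02 for all measured genes. The quartiles of the chromatin genes were −0.31 and 0.43 in the first comparison and −0.35 and 0.21 in the second, beside −0.31 to 0.50 and −0.26 to 0.38 for all genes. SMARCA2 alone was more than 4-fold apart in the first 2 comparisons, and DNMT1 alone in the third.

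**Figure D1:**
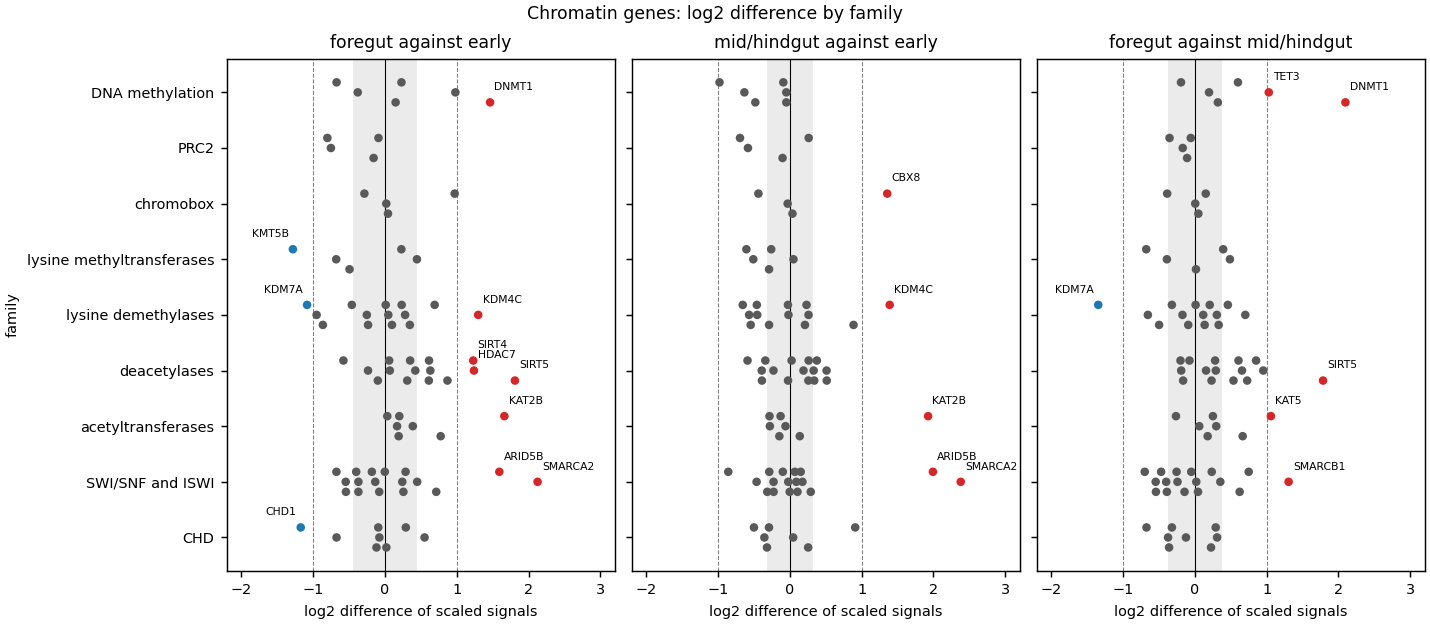
Log2 difference of scaled signals for each measured chromatin gene (1 point per gene, brightest probe set), by family, in the 3 comparisons with 1 array per tissue. Grey bands are 1 technical standard deviation and dashed lines 2-fold; most points lie between the dashed lines, and SMARCA2 lies farthest right in the comparisons of both later tissues with early endoderm, at 2.13 and 2.38.

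In all, 15 genes were at least 2-fold apart in some comparison, giving 22 differences of that size. The share of all genes apart in some comparison was not counted, so the 15 are not read as a trait of chromatin genes. In 14 of the 22 the dimmer array lay below 44.3, less than 2 times the floor, where noise was not estimated on its own. No other probe set was measured for 14 of the 22, and in the other 8 every other measured probe set of the gene had the same sign. For the remaining 65 measured genes no difference was shown to reach 2-fold. Of these, CHD5, KDM1B and KDM2A lay below the floor on some arrays, where their differences are bounds or were not measured. Array scaling moves all values together. Without scaling the median of all genes was −0.21 for foregut and −0.22 for mid/hindgut against early. With scaling on the hybridisation controls, RNAs added to each sample, it was 0.51 for foregut and −0.07 for mid/hindgut against early endoderm and 0.56 between the later tissues. The chromatin genes' median went with it, to −0.24 and −0.32 without scaling and to 0.51, −0.16 and 0.62 on the controls, so a small difference has a direction only relative to the other genes.

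**Figure D2:**
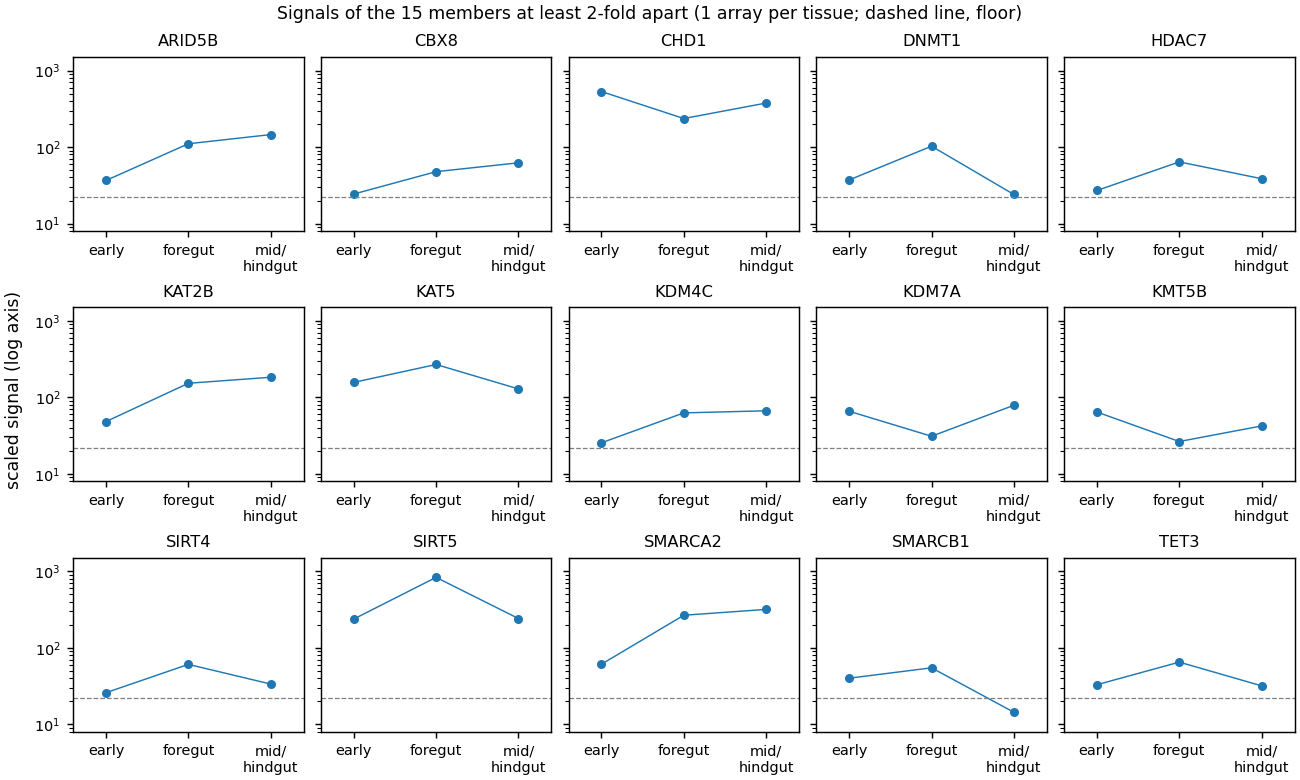
Scaled signal (log axis) on the early, foregut and mid/hindgut arrays for each of the 15 chromatin genes at least 2-fold apart in some comparison; each point is 1 array, lines join the 3 tissues, and the dashed line is the floor. SMARCA2, KAT2B, ARID5B and KDM4C are dim in early endoderm and brighter in both later tissues, whereas SIRT5 peaks in foregut at 834.

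DNA methylation is laid down by DNMT3A and DNMT3B, copied at replication by DNMT1 and oxidised for removal by the TET enzymes. DNMT3B had signals of 3294 in early endoderm, 2535 in the foregut and 1671 in the mid/hindgut. It was highest in the early tissue and lowest in mid/hindgut, 1.97-fold below early endoderm at a log2 difference of −0.98, and its other probe set gave −0.90. The difference of the brighter probe set passed 2-fold without scaling, at −1.24, and on hybridisation controls, at −1.08. In foregut against early endoderm the 2 probe sets gave −0.38 and −0.30, and the brighter became 0.09 with scaling on the hybridisation controls, where all genes shifted by 0.51. DNMT3A, its paralog, had signals of 887, 1041 and 833 and was within 1.25-fold in each comparison.

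TET1, the TET enzyme of pluripotent cells, had signals of 2905 in early endoderm, 1823 in the foregut and 2082 in the mid/hindgut. All 3 of its probe sets were lower in both later tissues, between −0.79 and −0.67 in foregut and between −0.48 and −0.30 in mid/hindgut. TET2 was at 269.6, 299 and 260.5 by its brightest probe set, a spread smaller than the technical standard deviation. Its 2 other measured probe sets were lower than in early endoderm, at −0.05 and −0.35 in foregut and −0.50 and −0.36 in mid/hindgut. TET3, at 32.9, 65.1 and 31.9, was 2.04-fold higher in foregut than in mid/hindgut, with 1 probe set above the floor. That difference was 0.99 without scaling and 0.10 with a higher floor, at the 60th percentile of signals. DNMT1 had signals of 37.2 in early endoderm, 102.6 in the foregut and 23.98 in the mid/hindgut on its only probe set. Foregut was 2.76-fold above early endoderm and 4.28-fold above mid/hindgut, at log2 differences of 1.46 and 2.10. With that higher floor both became 0.76, within 2-fold, and the early and mid/hindgut signals lay close to the floor. In mid/hindgut all 6 genes of DNA methylation were below early endoderm by their brightest probe sets, by 0.05 to 0.98 in log2, where 46.6% of all genes were lower. This held under each of the 3 other scalings, but the other probe set of DNMT3A was higher, at 0.29, and the median of its probe sets was 0.10. In foregut 4 were above and 2 below, or 2 above and 4 below without scaling.

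Polycomb repressive complex 2 puts the silencing methyl mark on histone H3. EZH2 and EZH1 are its alternative enzymes, EED reads the mark and SUZ12 is the scaffold. EZH2 had signals of 2793 in early endoderm, 1603 in the foregut and 1727 in the mid/hindgut. It was 1.74-fold and 1.62-fold lower in the later tissues by its brightest probe set, and a second probe set, at 2067, 789.6 and 1159, gave log2 differences of −1.39 and −0.83. EED was at 1313, 779.8 and 876, with log2 differences of −0.75 and −0.58, and its other probe set was lower as well. SUZ12 was at 690.4, 619 and 644, within 1.12-fold. Its 3 other probe sets disagreed, from −0.69 to 0.30 in foregut and from −0.54 to 0.03 in mid/hindgut. EZH1 was dim on every array, at 31.5, 29.6 and 37.7. None of these 4 genes was 2-fold apart by its brightest probe set as scaled here. The family median was −0.45 in foregut and −0.34 in mid/hindgut. EZH2 and EED kept their sign against early endoderm under every scaling. Without scaling they were past 2-fold lower in foregut, at −1.11 and −1.06, where the median of all genes was −0.21. With scaling on hybridisation controls EZH2 in foregut was at −0.34. On that scaling the family median in foregut was 0.01, or 0.50 below that of all genes.

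JARID2, which brings complex 2 to its targets, is not among the 82 genes. Its signals were 3406 in early endoderm, 1123 in the foregut and 905 in the mid/hindgut. It was 3.03-fold and 3.76-fold lower, its second probe set was lower too, and over all 9 alternatives run its log2 differences stayed between −2.22 and −1.14 in foregut and between −2.18 and −1.87 in mid/hindgut. No other of the 5 measured partners of complex 2 was 2-fold apart, a list too short to set beside the shares of all genes.

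The chromobox genes fall into readers of the mark of complex 2, which sit in Polycomb complex 1, and the heterochromatin proteins HP1. CBX8, a Polycomb reader, had signals of 24.3, 47.7 and 62.2, dimmest in early endoderm. It was 2.56-fold higher in mid/hindgut and 1.96-fold higher in foregut, and its other probe set was higher as well. The early signal was next to the floor, and under the higher floor the mid/hindgut difference was 0.04 in log2. CBX2, another Polycomb reader, was at 69.3, 56.9 and 51.2. The HP1 genes CBX1, at 3518, 3624 and 3608, and CBX3, at 3059, 3101 and 2995, were nearly level across the 3 tissues, within 1.04-fold.

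KDM2B, which binds unmethylated CpG islands and recruits a variant of Polycomb complex 1, had signals of 534 in early endoderm, 276 in the foregut and 389.8 in the mid/hindgut. It was 1.93-fold and 1.37-fold lower by its brightest probe set. Of its 3 other probe sets 2 gave −1.48 and −1.40 in foregut and −0.81 and −0.59 in mid/hindgut. The third lay just above the floor in early endoderm and below it in both later tissues, which leaves its difference unread. Of 10 measured partners of complex 1 outside the 82 genes, foregut had 1 at least 2-fold higher and 2 lower. Of all genes 10.6% were higher and 6.49% lower. In mid/hindgut 1 partner was lower, against 5.13% of all genes. PHC1, a subunit that joins such complexes into chains, was at 661, 237 and 361, 2.79-fold lower in foregut and 1.83-fold lower in mid/hindgut. RNF2, the enzyme that ubiquitinates histone H2A, was at 61.3 in early endoderm, 27.3 in mid/hindgut and not above the floor in foregut. It was 2.24-fold lower in mid/hindgut and at least 2.77-fold lower in foregut. Its other probe set was below the floor on the arrays compared, and under the higher floor both differences were at −0.02 in log2. PCGF2, a RING finger subunit, was at 30.1, 82.1 and 60.1, 2.73-fold higher in foregut, or 0.44 in log2 under the higher floor.

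**Figure D3:**
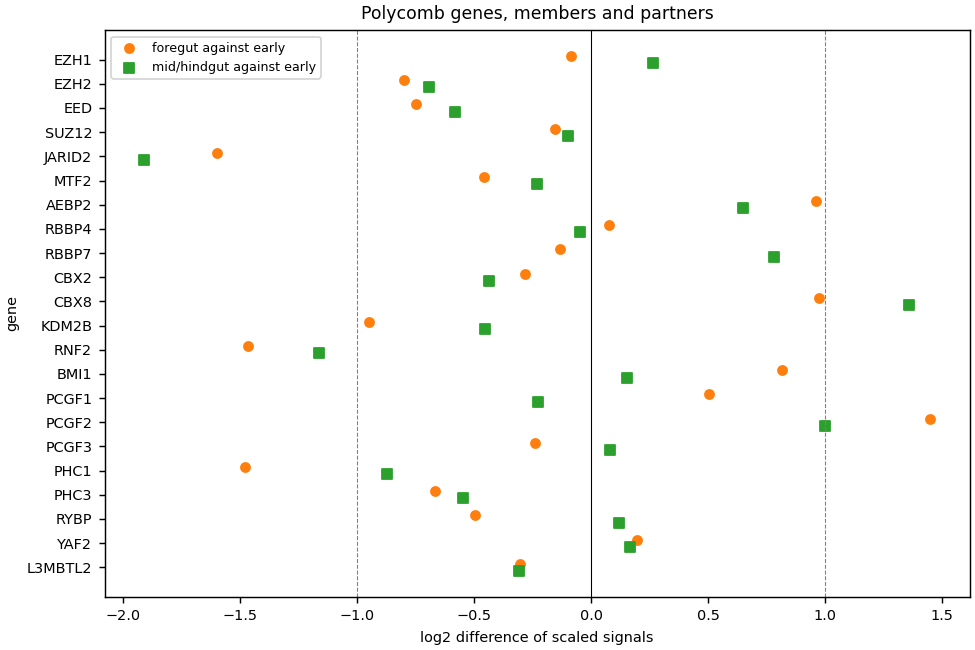
Log2 difference of scaled signals against early endoderm for measured Polycomb genes, in foregut (circles) and mid/hindgut (squares), 1 array per tissue and 1 brightest probe set per gene; dashed lines mark 2-fold. JARID2 lies farthest left in both tissues, at −1.60 and −1.91, and EZH2 and EED lie left of 0, while CBX8 and PCGF2 lie to the right.

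The 5 measured histone methyltransferases named KMT had a median log2 difference of −0.49 in foregut and −0.29 in mid/hindgut. By any amount 2 were higher and 3 lower in foregut, and 1 was higher and 4 lower in mid/hindgut. With scaling on hybridisation controls 6 were measured in foregut, with a median of 0.08, where that of all genes was 0.51. KMT2C, which marks enhancers, had signals of 697, 495 and 489.7. All 7 of its probe sets were lower in both later tissues, by 0.49 or more in foregut and by 0.39 or more in mid/hindgut. With scaling on hybridisation controls its brightest probe set was at −0.03 in foregut and −0.61 in mid/hindgut. KMT2A, a positive regulator of HOX genes, was at 626.5, 735 and 523, within 1.40-fold in every comparison. KMT5B, which adds further methyl groups to histone H4, was at 64.5, 26.5 and 42.4, 2.43-fold lower in foregut. It was within 2-fold on hybridisation controls, at −0.82, and under the higher floor, at −0.09. Its other probe sets were below the floor on both arrays and give no second reading. KMT5A, which adds the first of those groups, was at 89.1, 55.7 and 72.9, and KMT2E was at 467, 636 and 483, with both other probe sets lower in foregut, at −1.25 and at a bound of −0.43 where the signal was below the floor.

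Of the histone methyltransferases with other names, 20 were measured. At least 2-fold below early endoderm were 2 in foregut, against 6.49% of all genes, and 1 in mid/hindgut, against 5.13%. SETD3, which methylates actin, was at 521 in early endoderm, 238 in the foregut and 522 in the mid/hindgut, 2.18-fold lower in foregut, or −0.24 without probe sets shared between transcripts. WHSC1, a methyltransferase of histone H3 also called NSD2, was at 148, 70.6 and 101, 2.10-fold lower in foregut, or 0.28 without the shared probe sets. DOT1L, which methylates the core of histone H3, was at 94.8, 75.6 and 43.5, 2.18-fold lower in mid/hindgut, or −0.65 under the higher floor and −0.36 over the median of its probe sets.

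Lysine demethylases numbered 14, all measured in foregut against early endoderm, where 1 was at least 2-fold higher and 1 lower. Of all genes 10.6% and 6.49% were. KDM4C, which removes silencing marks from histone H3, had signals of 25.5, 62.8 and 66.9. It was close to the floor in early endoderm and similar in the later tissues, where it was higher by 2.46-fold and 2.62-fold. Its other probe set was below the floor on every array and gives no second reading, and under the higher floor the log2 differences were 0.05 and 0.15. KDM4A, its paralog, was at 806, 677 and 586, and KDM4B at 211, 268 and 244. KDM7A, another eraser of silencing marks, was at 65.9, 31.1 and 79.0 on 1 probe set. It was lowest in foregut, 2.12-fold below early endoderm and 2.54-fold below mid/hindgut, or −0.62 and −0.78 in log2 on hybridisation controls and −0.12 and −0.38 under the higher floor.

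KDM3A, an eraser of silencing marks on histone H3, had signals of 1209, 1422 and 2237. It was brightest in mid/hindgut, 1.85-fold above early endoderm, and its 2 other probe sets were higher there as well. KDM3B was at 296, 163 and 203. KDM1A, the eraser that works with CoREST and NuRD, was at 897, 1450.1 and 1054 by its brightest probe set, 1.62-fold higher in foregut, while both other probe sets were lower there. KDM6A, which removes the mark of Polycomb complex 2, was at 294, 249.6 and 198. The erasers of an active mark on histone H3 were also within 2-fold. KDM5A was at 434, 316 and 355.5, and KDM5B at 519, 537 and 329.6. KDM8 was within 1.09-fold, and KDM1B and KDM2A stayed near the floor. KDM6B was not among the genes named on the array.

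**Figure D4:**
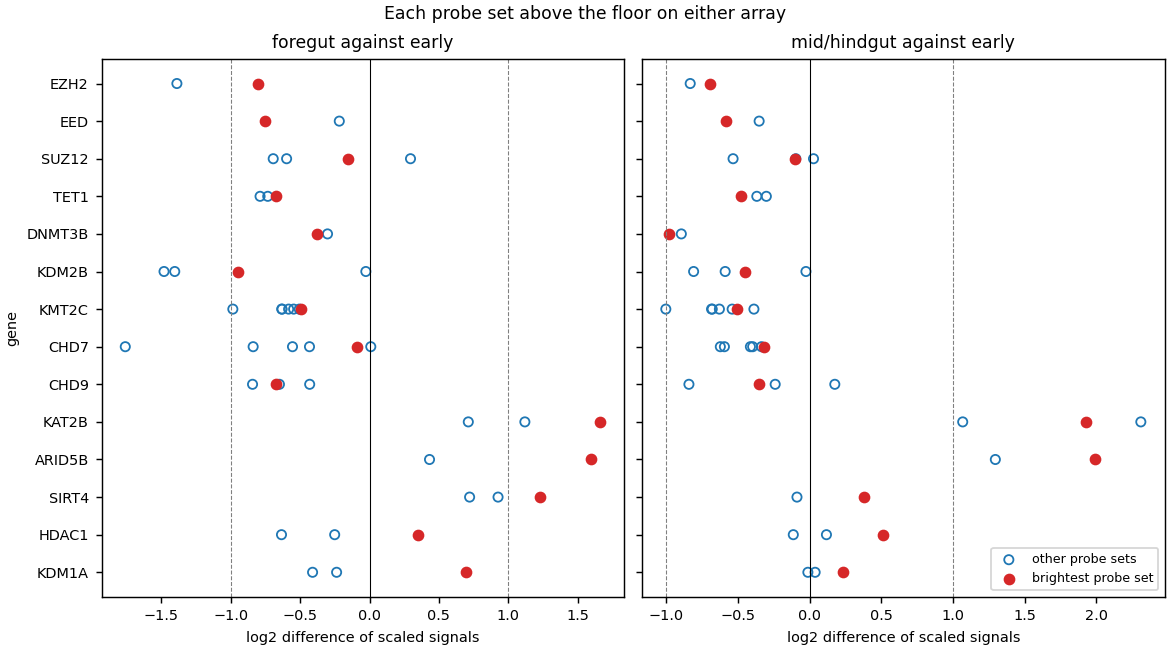
Log2 difference of scaled signals against early endoderm for every probe set above the floor on either array, in foregut (left) and mid/hindgut (right), for 14 genes with several probe sets; filled points are the brightest probe set and open circles the others, and a probe set below the floor on 1 of the arrays is drawn at its bound. The 3 TET1 and 7 KMT2C probe sets all lie below 0 and the 3 KAT2B probe sets all lie above 0, while those of HDAC1 and KDM1A in foregut lie on both sides.

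Deacetylases remove acetyl groups and mostly accompany repression. The HDAC enzymes of class I were within 2-fold. HDAC2 had signals of 4694, 4384 and 4615, within 1.07-fold, and HDAC3 730.6, 906 and 624. HDAC1 was at 1033, 1318 and 1475, and its other 2 measured probe sets were lower in foregut, at −0.63 and −0.25. HDAC8 was at 681, 1056 and 862, 1.55-fold higher in foregut. Of the class IIa enzymes, which shuttle between nucleus and cytoplasm, HDAC7 was at 27.1, 64.0 and 38.6, 2.36-fold higher in foregut. The difference was 0.94 without scaling, 0.92 over the median of probe sets and 0.08 under the higher floor, all within 2-fold. HDAC4 was at 316, 484 and 398, HDAC9 at 109, 166 and 85.9, and HDAC10 and HDAC11 stayed within 1.31-fold.

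The sirtuins are deacylases that need NAD. SIRT5, which removes succinyl and related groups from mitochondrial proteins, had signals of 237.7 in early endoderm, 834 in the foregut and 242 in the mid/hindgut. It stood out in foregut, 3.51-fold above early endoderm and 3.45-fold above mid/hindgut at log2 differences of 1.81 and 1.79. Across all 9 alternatives run these stayed between 1.51 and 2.28 and between 1.75 and 2.35, but SIRT5 has 1 probe set. The other mitochondrial sirtuins were brightest in foregut too, as were SIRT2, SIRT6 and 39.4% of all genes above the floor on some array. SIRT3 was at 169, 309 and 202.5, 1.83-fold above early endoderm, and SIRT4 at 25.9, 60.8 and 33.6, 2.35-fold above it, with both other probe sets higher. SIRT4 was within 2-fold without scaling, at 0.93, and under the higher floor, at 0.01. The nuclear SIRT1 was at 319.9, 214 and 244, 1.49-fold lower in foregut, SIRT6 at 353, 473 and 402, and the cytoplasmic SIRT2 at 363, 381 and 241. Of 15 deacetylases 12 were higher by any amount in foregut than in early endoderm, where 55.6% of all genes were, and the family median was 0.42, or 0.12 without scaling and 0.89 on hybridisation controls.

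Acetyltransferases open chromatin. KAT2B, a coactivator also called PCAF, had signals of 48.3 in early endoderm, 153 in the foregut and 184 in the mid/hindgut. It was dim in the early tissue and 3.17-fold and 3.80-fold higher in the later tissues. All 3 probe sets were higher, between 0.71 and 1.66 in foregut and between 1.07 and 2.31 in mid/hindgut, and every one of 9 alternatives kept both differences past 2-fold. Its paralog KAT2A, also called GCN5, was at 5748, 6466 and 5257, within 1.23-fold. KAT5, also called TIP60, was at 157, 269.6 and 129, 2.09-fold higher in foregut than in mid/hindgut on its only probe set, at a log2 difference of 1.06. KAT6A was at 939.6, 1079.8 and 1034, KAT6B at 100.2, 131 and 82.6, KAT7 at 1903, 2173 and 1825 and KAT14 at 556, 569 and 503, all within 2-fold by their brightest probe sets. The 3 other probe sets of KAT14 were lower in foregut than in early endoderm, between −0.64 and −0.40. The other measured probe set of KAT6B was lower there too, at a bound of −0.91. Those of KAT6A ran from a bound of −0.94 to 0.03.

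SWI/SNF complexes contain SMARCA4 or SMARCA2 as their ATPase. SMARCA2, also called BRM, had signals of 61.1 in early endoderm, 266.7 in the foregut and 318 in the mid/hindgut. It was 4.37-fold and 5.20-fold higher in the later tissues, at log2 differences of 2.13 and 2.38, the widest of any chromatin gene against early endoderm. Across 9 alternatives they lay between 1.06 and 2.59 and between 1.19 and 2.38, the lowest being the median with another probe set that was below the floor on all arrays. SMARCA4, also called BRG1, was at 1825, 2228 and 1324, within 2-fold in every comparison. The core subunit SMARCC1 was at 1523, 2499 and 1621 and SMARCE1 at 2139.6, 2530.2 and 2618. SMARCB1, another core subunit, was dim on its only probe set, at 40.1, 54.8 and a value below the floor in mid/hindgut, so it was at least 2.47-fold higher in foregut than there. SMARCD1 was level within 1.02-fold, and SMARCD2 and SMARCD3 differed by at most 1.62-fold.

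ARID subunits bind DNA. ARID5B, a cofactor that works with a histone demethylase, had signals of 36.6, 110.4 and 145.5. It was lowest in early endoderm, 3.02-fold and 3.98-fold higher in the later tissues, and its other probe set gave 0.43 and 1.30. Under the higher floor the foregut difference was 0.87, within 2-fold. The SWI/SNF subunits ARID1A, at 1045, 989.5 and 840.1, and ARID1B, at 1988, 1753 and 1699, were within 1.24-fold, and ARID2 and ARID4A within 1.46-fold by their brightest probe sets. The other probe sets of ARID4A ran from −1.04 to 0.38 in foregut against early endoderm. Among the ISWI remodellers SMARCA5 was at 4668, 3539 and 4898 and SMARCA1 at 635, 759 and 593. The related helicases SMARCAD1, at 500.2, 313 and 410.2, and SMARCAL1, at 268, 244 and 289, were within 2-fold.

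Of 11 measured SWI/SNF subunits outside the 82 genes, foregut had 1 that was at least 2-fold lower and mid/hindgut had 2. The shares of all genes were 6.49% and 5.13%. BCL11A, a zinc finger subunit, was at 152 in early endoderm, 24.04 in the foregut and 42.1 in the mid/hindgut, 6.31-fold and 3.61-fold lower, with 2 other probe sets lower as well. DPF3, a reader of histone marks, was at 49.6, 63.8 and 23.6, 2.10-fold lower in mid/hindgut than in early endoderm and 2.70-fold lower than in foregut, or 0.89 in log2 for foregut against mid/hindgut over the median of probe sets. Under the higher floor it was at −0.25 in mid/hindgut against early endoderm.

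The CHD remodellers other than CHD1 were within 2-fold by their brightest probe sets. CHD1, a remodeller of transcribed genes, had signals of 532, 236 and 376. It was 2.25-fold lower in foregut, or −0.70 by the median of both probe sets and −0.71 on hybridisation controls, both within 2-fold. CHD4, the ATPase of the deacetylase complex NuRD, was at 1517.5, 1539 and 1241. Its 3 other probe sets were lower in foregut, by 0.66 or more. CHD7, mutated in human CHARGE syndrome, was at 1264, 1186 and 1014. Its brightest probe set was within 1.25-fold, and the 5 other measured probe sets reached from 0.01 down to a bound of −1.76 in foregut, where that probe set was below the floor, and lay between −0.62 and −0.34 in mid/hindgut. CHD9 was at 424, 266 and 332, CHD2 at 193, 178 and 230.1 by its brightest probe set, CHD6 at 28.2, 41.4 and 53.1 and CHD1L at 218, 207 and 225. Both other measured CHD6 probe sets were lower than in early endoderm. They gave −0.62 and a bound of −0.78 in foregut, and a bound of −0.64 and a value of −0.08 in mid/hindgut. Another CHD2 probe set, at 66.5, 139.8 and 201, was 1.07 and 1.60 higher in the later tissues in log2. None of the 7 measured partners of NuRD was 2-fold apart. Of all genes 10.6% were higher and 6.49% lower in foregut, and 8.12% and 5.13% in mid/hindgut. A list of 7 is too short to set below these shares.

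Lists of other genes of the same complexes were set beside the 82 genes. Of 138 symbols 99 were on the array and 95 were measured. In foregut against early endoderm 2 of the 95 were past 2-fold upward, where 10.6% of all genes were, and 7 downward, where 6.49% were. In mid/hindgut the counts were 2 and 5, against 8.12% and 5.13%, and between the later tissues 2 and 2, against 6.37% and 5.74%. Besides the genes named above, the acetyl-lysine readers BRD3 and BRD1 stood apart. BRD3 was at 91.3, 208 and 268.5, 2.28-fold and 2.94-fold higher in the later tissues, though at 0.89 in foregut without scaling, whereas BRD1 was at 1067, 403 and 656, 2.65-fold lower in foregut but at −0.21 by the median of all its probe sets. The remodeller subunit BAZ1A was at 105, 132 and 239.9, 2.28-fold higher in mid/hindgut, or 0.92 in log2 without scaling. The coactivator NCOA1 was at 84.0, 155 and 72.4, 2.14-fold higher in foregut than in mid/hindgut, with its other probe set below the floor on both arrays. ZBTB33, a reader of methylated DNA, was at 40.8, 27.2 and 61.0, 2.25-fold lower in foregut than in mid/hindgut, or −0.60 on hybridisation controls and −0.01 under the higher floor. None of the 11 measured HDAC corepressors was 2-fold apart in any comparison, a list too short to set below those shares of all genes.

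Paralogs on the same arrays share the scaling factor, which cancels from the gap between their log2 differences. Of 12 pairs, chosen with the values known, 3 were at least 2-fold apart in foregut and 3 in mid/hindgut in how they stood to early endoderm. SMARCA2 gained on SMARCA4 by 1.84 in log2 in foregut and 2.84 in mid/hindgut. KAT2B gained on KAT2A by 1.49 and 2.05, and KDM4C on KDM4A by 1.55 and 1.85. Such a gap had a technical standard deviation of 0.61 for foregut and 0.44 for mid/hindgut, taken from probe sets above the floor on every array. KDM4C was close to the floor in early endoderm, and under the higher floor its own log2 differences were 0.05 and 0.15. EZH1 gained on EZH2 by 0.71 and 0.96 and DNMT3B lost to DNMT3A, at −0.61 and −0.89, each less than 2-fold.

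Genes that mark other cells were read on the same arrays. All 12 endothelial markers were above the floor in both later tissues and 6 were at or below it in early endoderm. Their summed signal was 468 in early endoderm, 8532 in the foregut and 11237 in the mid/hindgut, and 11 of 12 were at least 2-fold higher in each later tissue. The counts of markers higher or lower that follow use the same 2-fold limit. The 7 blood markers on the array summed to 244, 1498 and 3231, and the 12 mesenchyme markers to 2838, 3704 and 1137. Of the mesenchyme markers 7 of 11 measured were higher in foregut and 1 lower, and 4 of 10 were higher in mid/hindgut and 4 lower. The 7 paraxial mesoderm markers on the array summed to 1348, 345 and 680, the 7 neural markers to 1620, 1713 and 514, and the 7 cardiac markers to 414, 421 and 280.1. Of the paraxial list 1 of 7 was higher and 3 lower in foregut, and 2 were lower in mid/hindgut. Of 6 measured neural markers 2 were higher and 1 lower in foregut and 1 was lower in mid/hindgut, and of 5 measured between the later tissues 4 were higher in foregut. In the cardiac list 1 of 7 was higher and 1 lower in foregut, and 2 of 6 were lower in mid/hindgut. The paraxial, endoderm and cell cycle sums were highest in early endoderm, as were EZH2, EED, TET1 and DNMT3B. The order of the endoderm sum rests on SOX17, at 9773, 878 and 4947. FOXA2 and GATA6 were also highest in early endoderm, whereas EPCAM and CDH1 were lowest there. The neural, mesenchyme and cardiac sums were highest in foregut, as were SIRT5, SIRT4, HDAC7 and DNMT1. The chromatin genes set beside these sums were picked by the array on which they were highest, so that match was fixed in advance. The neural and cardiac sums in foregut were close to those in early endoderm. Of 16 measured cell cycle genes none was at least 2-fold higher and 1, CCNE2, was at least 2-fold lower in each later tissue. The 16 summed to 42310, 39111 and 37311. SMARCA2, KAT2B, ARID5B and KDM4C stood in the same order over the arrays as the summed endothelial and blood signals. These 4 were named for being higher in both later tissues, so only the order of foregut and mid/hindgut was free to match. There their log2 differences were −0.25, −0.26, −0.40 and −0.09, beside a technical standard deviation of 0.36. On hybridisation controls that of ARID5B was 0.17. The part of any of the cell types above in the differences of chromatin genes was not tested.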

How the data were processed

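The authors deposited 1 linear signal intensity per probe set and array, made with MAS5 per the submitters' processing notes; its version is not given in the sources used here. The number of arrays, 3, limits the precision. With Python 3.11.15, pandas 2.3.3 and numpy 2.4.6, arrays were scaled to equal 2% trimmed means, which differed by more than 10%, by factors of 0.881, 1.09 and 1.06. Signals were floored at the 40th percentile of 37693 chicken probe sets, 22.1 units, and turned into log2. Of these probe sets 27166 had 1 gene in the platform annotation, 177 several genes (left out), and the rest were unnamed here. Names were updated through gene identifiers to the GRCg7b RefSeq gene table, which held 81 of the 82 genes. Each gene used its brightest probe set by mean floored log2 signal. Named are all of the 82 genes at least 2-fold apart, a fixed core whatever its values, up to 3 such partners per list, and, to account for each gene, the rest, chosen after their values were seen. The genes and lists were chosen with earlier results of these data known. The calculation was tested on simulated data. The alternatives were 3 other scalings, 3 other floors, a requirement to pass the floor on each array, the median of a gene's probe sets, leaving out shared probe sets, and a limit of 3-fold. Paralog pairs and the probe-set plot were chosen after seeing values. A replicate test was not possible with 1 array per group.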

Additional observations from a re-analysis of the deposited data

Results flagged for a closer look

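In 3 chromatin genes the later tissues lay on opposite sides of early endoderm, each by more than the technical standard deviation of its comparison. The difference was not tested. The share of all genes with this pattern was not counted, so the count is not read as a trait of chromatin genes. DNMT1 had a log2 difference of 1.46 in foregut and −0.63 in mid/hindgut. HDAC9, a class IIa deacetylase, had 0.61 and −0.34. SMARCB1 had 0.45 and −0.86, where the mid/hindgut value is a bound set by the floor. Each rests on a single measured probe set. Without scaling the foregut value was 0.31 for HDAC9 and 0.15 for SMARCB1, both below the technical standard deviation of 0.43, and 1.16 for DNMT1.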

How the results depend on the processing

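No paired analysis was possible because each group has 1 array. Counts of chromatin genes at least 2-fold apart changed by over 1.5 times as follows. For foregut against early, 8 higher became 5 without scaling, 18 with scaling on hybridisation controls, 3 with a floor at the 60th percentile, 5 over the median of probe sets and 4 at 3-fold, while 3 lower became 7, 0, 1, 2 and 0. For mid/hindgut against early, 5 higher became 3 with the floor at the 60th percentile and 3 at 3-fold, and 0 lower became 2 without scaling, 1 with hybridisation controls, 1 with a floor at the 20th percentile and 1 with no floor. For foregut against mid/hindgut, 5 higher became 18, 2 and 2 with hybridisation controls, the 60th percentile floor and 3-fold, and 1 lower became 0, 0 and 0, or 2 without shared probe sets. Scaling on hybridisation controls moved the median of the chromatin genes to 0.51 in foregut relative to early endoderm and 0.62 relative to mid/hindgut, as it moved that of all genes. WHSC1 in foregut reversed to 0.28 without shared probe sets, which leaves another probe set of the gene. For all genes the counts higher and lower in foregut against early, 1145 and 701, became 742 and 1210 without scaling and 2465 and 380 on hybridisation controls; for foregut against mid/hindgut 695 and 626 became 2289 and 252 on the controls. Of the 22 differences of at least 2-fold, 9 kept that size under every alternative that keeps the 2-fold limit and gave a value: SMARCA2 and KAT2B in both later tissues, ARID5B in mid/hindgut, SIRT5 in foregut against both other tissues, and KAT5 and SMARCB1 in foregut against mid/hindgut. SIRT5, KAT5 and SMARCB1 have 1 probe set, so the median of probe sets and leaving out shared ones repeat their main value. ARID5B in mid/hindgut gave a value under 8 alternatives. SMARCB1 gave one under 7, and its mid/hindgut signal lay below the floor. For other changes the cause was not tested. Signals below 2 times the floor on the dimmer array limit ARID5B, CBX8, DNMT1, HDAC7, KDM4C, KDM7A, KMT5B, SIRT4, SMARCB1 and TET3.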
